A study of Mus musculus with 48 samples.

Results

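The comparison described here is the loss of the second Msh3 allele in mice that carry the Q140 allele of huntingtin: Q140 x Msh3-/- mice, labelled as having no intact Msh3 allele, against Q140 x Msh3+/- mice, labelled as having 1. The mice were taken by their genotype label, 8 in each group, so that 16 of the 48 mice of the series entered it. The question is which striatal genes change with the second allele and, among those, which change only with it. Both groups are heterozygous for Q140, a knock-in allele with a long CAG repeat in the mouse's own huntingtin gene, used to model Huntington's disease. All mice are labelled as C57BL/6 and 12 months old, with 4 females (F1 to F4) and 4 males (M1 to M4) in each group. The extraction text of the same labels gives dissection at 6 months, so the age is uncertain. The labels do not say how the Msh3 allele was disrupted. The other groups, each of 8 mice with 4 of each sex, are Q140, Msh3-/-, Msh3+/- and wild type (WT). They enter as the other allele steps and as the source of the Q140 change. Each sample is the RNA of 1 mouse's striatum, sequenced from stranded libraries and counted per gene.

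Msh3 encodes a DNA mismatch repair protein that works in a complex which binds small loops of unpaired DNA. In mouse models of Huntington's disease Msh3 is required for the expansion of the CAG repeat during life, which is marked in the striatum. The spiny projection neurons that make up most striatal neurons lose expression of many of their identity genes in such models, among them dopamine receptors, neuropeptides and enzymes of cyclic AMP signalling.

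Library totals were 43183409 to 55581087 counts in Q140 x Msh3-/- mice and 38916064 to 56888792 counts in Q140 x Msh3+/- mice. The mitochondrial share of counts averaged 7.05% ± 0.577 in Q140 x Msh3-/- mice and 6.48% ± 0.432 in the Q140 x Msh3+/- group (SD over 8 mice a group; 2-sided exact permutation p = 0.0448). In the first component of the residuals, which took up 15.22% of their variance, Q140 x Msh3-/- M1 and Q140 x Msh3+/- F1 lay more than 3 robust SD from the median of the 48 mice, as did Msh3-/- F1 and M1. Tmem181c-ps and 1500015A07Rik had the largest weights in it. Counts of called genes are also given without these 4 libraries. Levels below are CPM, counts scaled to an equal library total after TMM correction, and a gene is called changed at an adjusted p under 0.05 in edgeR's quasi-likelihood test over 19714 genes. Fold changes are log2, with the standard error (SE) of the fit. The marker genes of spiny projection neurons checked the striatal label. The summed level of 30 of them was 19240 to 24830 CPM in Q140 x Msh3-/- mice and 17040 to 20490 CPM in Q140 x Msh3+/- mice. In bulk tissue, fewer cells of a type and less RNA per cell cannot be told apart.

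Msh3 itself (ENSMUSG00000014850; GRCm38 chr13:92211872-92355003, minus strand) had more RNA, not less, in the mice labelled as lacking it. Its lowest, median and highest levels were 103.2, 116 and 126 CPM in Q140 x Msh3-/- mice, against 68.4, 75.4 and 81.5 CPM in Q140 x Msh3+/- mice. The groups did not overlap, and both lay above the 28.5 to 32.5 CPM of Q140 mice. The second step raised Msh3 by 0.62 ± 0.0335 (log2, SE; adjusted p = 2.13e-20, higher in 8 of 8 mice). In CPM the second step added 40.6 and the first 44.4, so the RNA rose by similar amounts with each labelled allele. A count over the whole gene says nothing of the product, and the rise orders the mice by their labels. Htt had 205, 227 and 243 CPM in Q140 x Msh3-/- mice and 207, 221 and 238 CPM in Q140 x Msh3+/- mice, with a difference of 0.03 ± 0.0340 (adjusted p = 0.745).

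**Figure D1:**
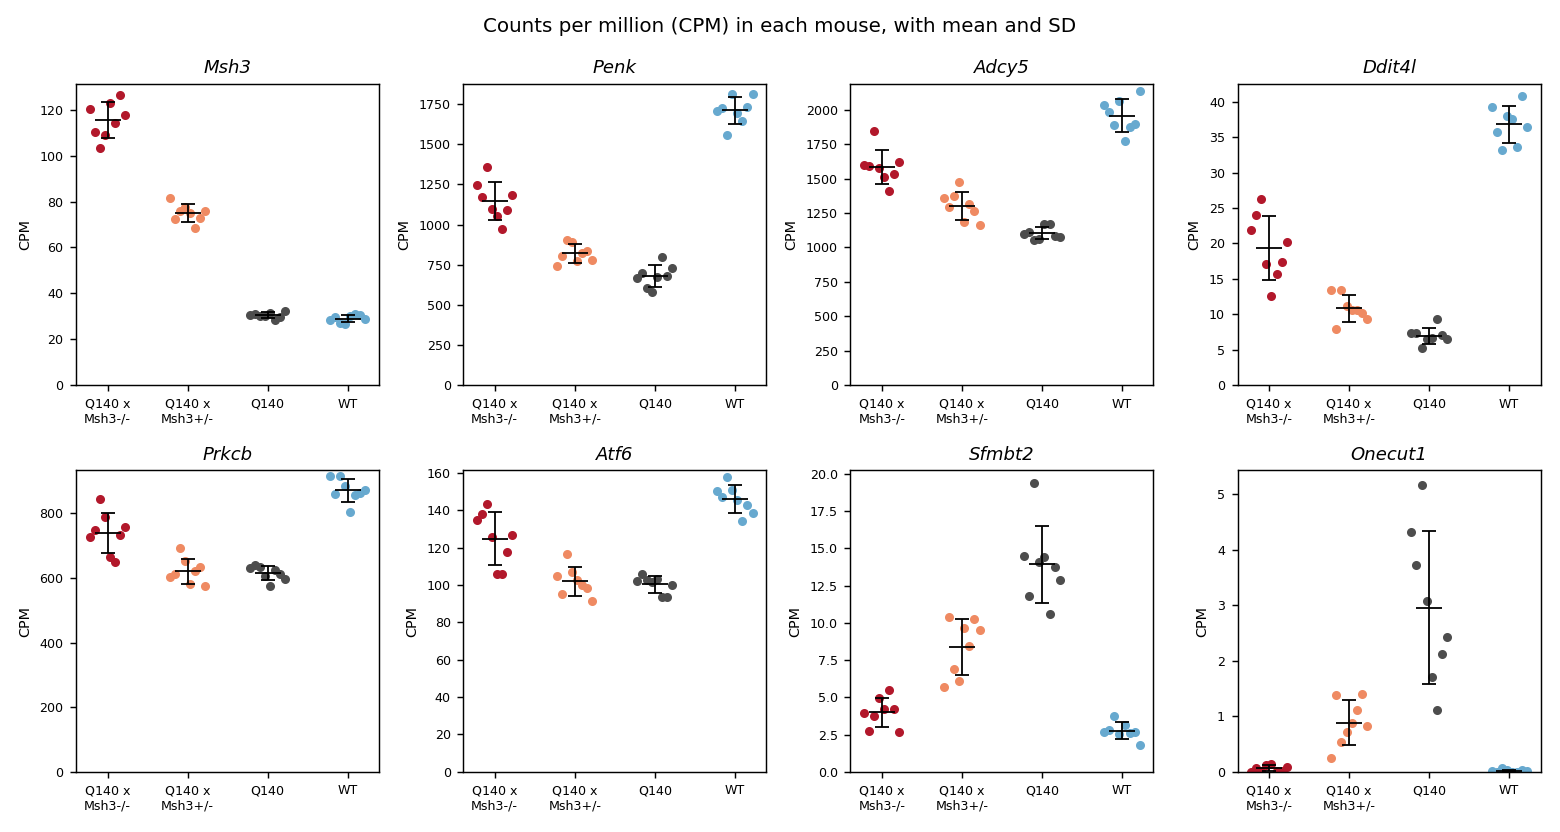
CPM of 8 genes in each mouse (points), with the mean and SD of the 8 mice of a group (black); the y axis of each panel starts at 0 and the groups are Q140 x Msh3-/-, Q140 x Msh3+/-, Q140 and WT. Msh3, Penk, Sfmbt2 and Onecut1 do not overlap between the Q140 crosses, and for Penk and Adcy5 the medians of both crosses lie between those of Q140 and WT mice.

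Loss of the second allele changed 637 of the 19714 genes (3.23%), with 452 higher (2.29%) and 185 lower (0.938%) in Q140 x Msh3-/- mice. Most changes were small: the median size was 0.202 on the log2 scale, and 18 of the 637 genes changed by 2-fold or more. The split depended on the scaling. With library totals in place of TMM, 252 genes were higher and 679 lower, while the median over all genes tested was -0.046, against -0.005 with TMM. The count was 386 without Q140 x Msh3-/- F3, 892 without Q140 x Msh3-/- M1, and 702 without the 4 libraries that stood apart. The levels of 59 of the 637 genes (9.26%) did not overlap between the groups, against 0.33% of all genes tested.

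Promoters of genes of both directions are shown to give the sequence at the starts of genes that results below turn on. RefSeq sequences of GRCm38.p6 run from 250 bases before to 50 bases after a gene's start, 5′ to 3′ on the gene's strand, with CpG dinucleotides in capitals. Adcy5, Ddit4l and Prkcb were higher in Q140 x Msh3-/- mice, and Onecut1, Sfmbt2 and Cbx8 were lower.
Adcy5 (chr16:35154614-35154913, plus strand): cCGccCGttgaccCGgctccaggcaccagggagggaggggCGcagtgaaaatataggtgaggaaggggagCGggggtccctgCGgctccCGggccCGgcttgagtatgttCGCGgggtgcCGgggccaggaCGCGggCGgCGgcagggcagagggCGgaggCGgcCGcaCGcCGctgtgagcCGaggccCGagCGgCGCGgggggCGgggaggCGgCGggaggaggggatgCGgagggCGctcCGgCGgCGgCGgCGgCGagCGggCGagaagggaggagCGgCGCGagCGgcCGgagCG
Ddit4l (chr3:137623422-137623721, plus strand): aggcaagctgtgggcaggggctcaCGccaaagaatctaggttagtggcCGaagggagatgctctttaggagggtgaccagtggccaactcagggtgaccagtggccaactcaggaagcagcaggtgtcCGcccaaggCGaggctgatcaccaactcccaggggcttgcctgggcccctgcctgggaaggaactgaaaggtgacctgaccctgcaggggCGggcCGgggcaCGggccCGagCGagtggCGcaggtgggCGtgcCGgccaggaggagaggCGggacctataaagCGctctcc
Prkcb (chr7:122288875-122289174, plus strand): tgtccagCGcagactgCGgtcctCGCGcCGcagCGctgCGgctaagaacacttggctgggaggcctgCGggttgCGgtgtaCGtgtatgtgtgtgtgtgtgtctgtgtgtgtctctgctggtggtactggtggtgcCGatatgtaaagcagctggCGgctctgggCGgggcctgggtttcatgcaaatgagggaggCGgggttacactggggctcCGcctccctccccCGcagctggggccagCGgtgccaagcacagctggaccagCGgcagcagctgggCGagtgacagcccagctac
Onecut1 (chr9:74861671-74861970, plus strand): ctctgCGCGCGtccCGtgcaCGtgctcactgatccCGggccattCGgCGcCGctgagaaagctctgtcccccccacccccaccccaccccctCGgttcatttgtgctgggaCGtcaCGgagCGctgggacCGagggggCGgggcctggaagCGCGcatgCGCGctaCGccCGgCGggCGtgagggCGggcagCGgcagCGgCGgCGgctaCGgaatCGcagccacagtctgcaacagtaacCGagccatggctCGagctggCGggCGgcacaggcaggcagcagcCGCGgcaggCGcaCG
Sfmbt2 (chr2:10372186-10372485, plus strand): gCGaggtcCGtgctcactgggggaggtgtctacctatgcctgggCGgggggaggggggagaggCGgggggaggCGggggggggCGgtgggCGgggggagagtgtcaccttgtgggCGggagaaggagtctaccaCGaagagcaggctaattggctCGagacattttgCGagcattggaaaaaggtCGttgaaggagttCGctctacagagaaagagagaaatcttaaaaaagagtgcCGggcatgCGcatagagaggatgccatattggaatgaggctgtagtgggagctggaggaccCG
Cbx8 (chr11:119040864-119041163, minus strand): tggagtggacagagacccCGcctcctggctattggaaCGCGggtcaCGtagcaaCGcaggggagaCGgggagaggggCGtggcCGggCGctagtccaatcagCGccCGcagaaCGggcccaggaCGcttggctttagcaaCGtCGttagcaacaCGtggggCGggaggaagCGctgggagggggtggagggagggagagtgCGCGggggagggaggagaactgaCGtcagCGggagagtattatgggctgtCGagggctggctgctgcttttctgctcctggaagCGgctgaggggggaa
The CpG count of those shown ranged from 14 in Ddit4l and 16 in Sfmbt2 to 38 in Onecut1 and 44 in Adcy5, so that both directions held rich and poor promoters. A further Sfmbt2 promoter, which is not shown, held 9. Over all promoters found, the median was 20 in the 474 promoters of genes called higher, 17 in the 196 of genes called lower and 18 in the 15855 of all genes tested. The cyclic AMP response element TGACGTCA, searched on both strands, was in 1.9% of the first, 3.57% of the second and 2.83% of all promoters. Its shorter core TGACG, which the full element contains, was in 23.0%, 27.0% and 28.4%. The genes called higher were the more abundant, with a median of 103.4 CPM against 21.4 CPM for those called lower and 10.9 CPM over all genes tested.

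Of 30 genes of spiny projection neuron identity measured, 19 rose, none fell and 11 did not pass. The number that rose was 14 without Q140 x Msh3-/- F3. The 30 genes had a median difference of 0.193, against -0.005 over all genes tested, of which 2.29% were higher. In the first step, Q140 x Msh3+/- minus Q140, the 30 genes had a median of 0.143 and 9 were called. Arpp21, which encodes a cyclic AMP-regulated phosphoprotein of striatal neurons, had 1129, 1206 and 1381 CPM in Q140 x Msh3-/- mice, against 853, 960 and 1011 CPM in Q140 x Msh3+/- mice. The lowest Q140 x Msh3-/- mouse stood above the highest Q140 x Msh3+/- mouse, and the difference was 0.36 ± 0.0469 (adjusted p = 1.14e-06). Scn4b, a sodium channel beta subunit named after its values were seen, rose by 0.48 ± 0.0738 (adjusted p = 3.64e-05), the largest rise of the list. Pde10a, the phosphodiesterase that breaks down cyclic nucleotides in these neurons, had 1658, 1990 and 2269 CPM in Q140 x Msh3-/- mice and 1416, 1577 and 1849 CPM in Q140 x Msh3+/- mice. Its ranges overlapped, all 8 Q140 x Msh3-/- mice lay above the mean of the other group, and it rose by 0.30 ± 0.0453 (adjusted p = 1.78e-05). Ppp1r1b, which encodes the phosphatase inhibitor DARPP-32, rose by 0.26 ± 0.0403 (adjusted p = 1.95e-05), and Ppp1r1a, a related inhibitor, by 0.33 ± 0.0476 (adjusted p = 8.86e-06). Foxp1, a transcription factor of these neurons, differed by 0.15 ± 0.0460 (adjusted p = 0.0539) and did not pass.

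Markers of both output pathways were among the genes that rose. Of 7 markers of indirect pathway neurons, which project to the external pallidum, 4 rose and none fell. In the first step 4 of the 7 were called too, with a median of 0.196, against 0.236 in the second. Penk, the enkephalin precursor, had 973, 1137 and 1356 CPM in Q140 x Msh3-/- mice, against 744, 814 and 905 CPM in Q140 x Msh3+/- mice. The groups did not overlap, and the rise was 0.48 ± 0.0532 (adjusted p = 4.17e-08). Drd2, the D2 dopamine receptor, rose by 0.28 ± 0.0426 (adjusted p = 1.95e-05). Adora2a, an adenosine receptor of these neurons, rose by 0.29 ± 0.0642 (adjusted p = 0.00559), and Gpr6, an orphan receptor, by 0.22 ± 0.0493 (adjusted p = 0.00549). Of 9 markers of direct pathway neurons, 2 rose and none fell. The median difference of these 9 was 0.016, near the -0.005 of all genes tested, against 0.236 for the indirect pathway markers. In the first step 2 of the 9 were called, with a median of 0.055. Chrm4, the M4 muscarinic receptor, had 69.0, 73.5 and 78.0 CPM in Q140 x Msh3-/- mice and 49.8, 60.9 and 62.7 CPM in Q140 x Msh3+/- mice, with no overlap (0.30 ± 0.0441, adjusted p = 8.86e-06). Drd1, the D1 dopamine receptor, rose by 0.24 ± 0.0415 (adjusted p = 0.000153). The neuropeptide genes of the direct pathway gave no call: Tac1 differed by -0.06 ± 0.0529 (adjusted p = 0.696) and Pdyn by 0.07 ± 0.0755 (adjusted p = 0.724).

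In the following lists of signalling and excitability genes, the calls were rises. Over all genes tested, 2.29% were higher. The median difference was 0.121 for cyclic AMP and G protein, 0.126 for potassium channel and 0.05 for glutamate and GABA receptor genes. In the first step 5, 1 and 3 genes of these lists were called, in that order. Of 25 genes of cyclic AMP and G protein signalling, 11 rose and none fell; 8 of the 11 are also on the identity list, and without Q140 x Msh3-/- F3 the count was 6. Rgs14, a regulator of G protein signalling, had 52.2, 61.2 and 75.1 CPM in Q140 x Msh3-/- mice, against 40.7, 44.8 and 47.6 CPM in Q140 x Msh3+/- mice. Those ranges did not overlap, and Rgs14 rose by 0.49 ± 0.0619 (adjusted p = 1e-06). Adcy5, which makes cyclic AMP in these neurons, had 1414, 1582 and 1847 CPM in Q140 x Msh3-/- mice and 1163, 1302 and 1473 CPM in Q140 x Msh3+/- mice. Its ranges overlapped, and it rose by 0.29 ± 0.0390 (adjusted p = 3.43e-06). Of 23 potassium channel genes, 8 rose and none fell, led by Kcnq5 (0.25 ± 0.0374, adjusted p = 1.95e-05) and Kcna4 (0.21 ± 0.0325, adjusted p = 2.21e-05), both voltage-gated channels. Of 26 glutamate and GABA receptor genes, 5 rose and none fell. They were the kainate receptor subunit Grik2 (0.28 ± 0.0445, adjusted p = 3.61e-05), the extrasynaptic GABA-A subunit Gabrd (0.27 ± 0.0408, adjusted p = 1.99e-05) and the metabotropic receptors Grm4 (0.19 ± 0.0391, adjusted p = 0.00149), Grm5 (0.19 ± 0.0370, adjusted p = 0.000708) and Grm3 (0.18 ± 0.0419, adjusted p = 0.00706). Chrna4, a nicotinic receptor subunit, had 11.5, 14.3 and 18.5 CPM in Q140 x Msh3-/- mice and 7.82, 9.86 and 11.1 CPM in Q140 x Msh3+/- mice, without overlap (0.60 ± 0.0849, adjusted p = 7.3e-06).

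The largest rises came from genes at low or moderate levels. Ddit4l, which encodes an inhibitor of mTOR signalling, had 12.6, 18.8 and 26.2 CPM in Q140 x Msh3-/- mice and 7.95, 10.6 and 13.4 CPM in Q140 x Msh3+/- mice. The ranges overlapped and it rose by 0.84 ± 0.110 (adjusted p = 3.67e-06). Gpx6, a glutathione peroxidase, had 3.47, 4.85 and 7.27 CPM in Q140 x Msh3-/- mice and 1.07, 2.44 and 4.08 CPM in Q140 x Msh3+/- mice. These ranges overlapped, and Gpx6 rose by 1.08 ± 0.194 (adjusted p = 0.000383). Mas1, a receptor for angiotensin-(1-7), rose by 0.77 ± 0.118 (adjusted p = 2e-05), and Slc4a11, a membrane transporter, by 0.76 ± 0.147 (adjusted p = 0.00107). Wnt8b, a Wnt ligand, had the largest rise among called genes whose log2 CPM averaged 1 or more, at 1.35 ± 0.372 (adjusted p = 0.0306). Its call was lost in 7 of the 16 fits that left out 1 mouse, with adjusted p up to 0.102. Of 17 immediate early genes, which neuronal activity induces, 2 rose: Egr3 by 0.35 ± 0.0810 (adjusted p = 0.00812) and Egr2 by 1.13 ± 0.331 (adjusted p = 0.0466). The 17 had a median difference of 0.336, with a range of 0.058 to 1.132, against a median of -0.005 over all genes tested. The Egr3 ranges did not overlap, with 91.7, 105 and 137 CPM in Q140 x Msh3-/- mice and 71.1, 84.9 and 89.9 CPM in Q140 x Msh3+/- mice. Egr2 lost its call in 11 of the 16 fits without 1 mouse and in the fit without the libraries that stood apart. Of 16 p53 targets, 3 rose (Ddit4l, Plk2 and Gadd45a), and Gadd45a lost its call in 9 of the 16 fits. The median difference of the 16 targets was 0.031, and over all genes tested 2.29% were higher.

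The genes that fell included a few developmental and chromatin regulators. Onecut1, a developmental transcription factor gene near 0 in WT mice (0 to 0.0612 CPM), had 0, 0.0473 and 0.141 CPM in Q140 x Msh3-/- mice and 0.245, 0.853 and 1.40 CPM in Q140 x Msh3+/- mice. The 8 Q140 x Msh3-/- libraries held 24 counts of it in all, against 361 in the Q140 x Msh3+/- libraries. The groups did not overlap and the fitted difference was -3.80 ± 0.444 (adjusted p = 2.1e-07). Wt1, a transcription factor gene named after its values were seen, had 0, 0.125 and 0.572 CPM in Q140 x Msh3-/- mice and 0.591, 1.33 and 2.47 CPM in Q140 x Msh3+/- mice, without overlap (-2.73 ± 0.449, adjusted p = 0.000109). Onecut1 and Wt1 were near 0 in Q140 x Msh3-/- mice and passed the filter on low counts through Q140 and Q140 x Msh3+/- mice. Their falls and lack of overlap are therefore given as a description. Of 21 developmental fate regulators, 15 passed that filter. Of these 15, 2 fell, Onecut1 and Onecut2 (-0.45 ± 0.0923, adjusted p = 0.00254), and none rose, with a median difference of 0.022. Over all genes tested, 0.938% were lower. Of 25 Polycomb group genes, 3 fell and none rose, and the median difference of the 25 was -0.023. Sfmbt2 had 2.66, 4.07 and 5.499 CPM in Q140 x Msh3-/- mice and 5.69, 8.99 and 10.4 CPM in Q140 x Msh3+/- mice, with no overlap (-1.07 ± 0.135, adjusted p = 1e-06). Cbx8, a chromobox subunit of Polycomb complexes, fell by 0.46 on the log2 scale (SE 0.0910, adjusted p = 0.00102). Of 57 clustered protocadherins, neuronal cell-surface proteins encoded in tandem arrays, 4 fell and none rose. The median difference of the 57 was -0.083, against -0.099 in the first step and -0.062 in Msh3-/- minus Msh3+/- mice without Q140. Without Q140 x Msh3-/- F3 the count was 2 lower, without Q140 x Msh3-/- M1 it was 4 lower and 1 higher, and with library totals it was 11 lower. The 4 were all of the beta cluster, from -0.23 for Pcdhb9 to -0.33 for Pcdhb3, and counts of such close copies are uncertain. Without Q140 x Msh3-/- F3 the call of Pcdhb3 was lost, as it was without 6 other mice in turn.

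Over all genes tested, 2.29% were higher and 0.938% lower in the second step. Few markers of other cell types passed, while the median difference of some lists was above 0. It was 0.28 for cortical excitatory markers (0.636 in females alone and 0.047 in males alone), 0.136 for GABAergic interneuron, 0.118 for endothelial and mural, 0.087 for astrocyte and 0.081 for microglia markers, against 0.193 for the identity genes. None of 8 cholinergic interneuron, 13 mature oligodendrocyte, 10 oligodendrocyte precursor, 13 microglia, 13 endothelial and mural, 9 ependymal and choroid plexus, 11 cortical excitatory or 6 thalamic and hypothalamic markers passed. Nos1, of the GABAergic interneuron markers (1 of 12), rose by 0.13 ± 0.0348 (adjusted p = 0.0217), and of 14 astrocyte markers Slc4a4 and Ntsr2 rose by 0.13 and 0.15. The summed astrocyte markers were 5988 to 7035 CPM in Q140 x Msh3-/- mice and 5851 to 6409 CPM in Q140 x Msh3+/- mice. Cortical markers, which tissue beside the striatum can bring, summed to 337 to 441 CPM in Q140 x Msh3-/- mice and 341 to 377 CPM in Q140 x Msh3+/- mice, with Slc17a7 reaching 64.4 CPM in 1 Q140 x Msh3-/- mouse and 17.6 CPM at most in Q140 x Msh3+/- mice. Their part in the rises above was not tested. No member of 86 nuclear respiratory chain, 83 cytosolic ribosomal protein, 17 heat shock and chaperone or 16 interferon response genes passed, and 1 of 22 cholesterol synthesis genes did (Tm7sf2, -0.21 ± 0.0619, adjusted p = 0.0415, lost in 10 of the 16 fits without 1 mouse). None of 19 other mismatch repair and repeat modifier genes passed, including Msh6 (-0.01 ± 0.0484, adjusted p = 0.941).

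No gene met the full definition of a change that came only with the second allele. It asked for a call in the second step, a call of the same sign between Q140 x Msh3-/- and Q140 mice (3217 genes, 16.3%), a call of the same sign in the difference of the steps, and no sign of the first step (unadjusted p of 0.05 or more). The first step, Q140 x Msh3+/- minus Q140, called 260 genes (1.32%). Of these, 85 were also called in the second step with the same sign, and 0 with the opposite sign. The other 552 second-step genes were not called in the first step, which does not show that they were unchanged in it. The difference of steps called 1 gene, Msh3 (0.00507%), with a log2 rise that was smaller in the second step than in the first. At an unadjusted p under 0.05 it held 1219 genes, 6.18% of those tested, and the smallest adjusted p beside Msh3 was 0.715. DESeq2 and limma called 1 gene each in this difference and 0 genes by the full definition. The steps share the Q140 x Msh3+/- mice, so any deviation of these enters them with opposite signs. Over the 637 genes, the 95% interval of the difference of steps reached 0.163 to each side at the median, while the median size of the second step itself was 0.202. This interval is unadjusted, and the adjusted call that the definition asked for needs a larger difference. The 637 genes were also selected by their second step, which can enlarge its median size.

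Some genes had a second step and a first step near 0, and they are given as a description chosen after the values were seen. With an unadjusted p under 0.05 for the difference of steps in place of the adjusted one, 144 genes met the definition, 81 higher and 63 lower. This number was 76 without Q140 x Msh3-/- F3, 92 without Q140 x Msh3+/- F2 and 224 without Q140 x Msh3-/- M1. The second step enters both criteria, so genes called in it pass the difference of steps more readily. The 144 can therefore not be set against the 6.18% of all genes tested that passed this unadjusted threshold, and no expected number was worked out. The 12 with the smallest such p were Atf6, Prkca, Znfx1, Prkcb, Cacfd1, Lrriq1, N4bp3, 8030462N17Rik, Slmap, Ccdc138, Cish and Git1. Atf6, a transcription factor of the unfolded protein response, had 106, 126 and 144 CPM in Q140 x Msh3-/- mice, 91.7, 101 and 117 CPM in Q140 x Msh3+/- mice and 93.7, 102 and 106 CPM in Q140 mice. The Q140 x Msh3-/- range overlapped that of Q140 x Msh3+/- mice. The second step of Atf6 was 0.29 ± 0.0372 (adjusted p = 1e-06) and its first step 0.02 (95% interval -0.05 to 0.10). Prkcb, a protein kinase C, had 649, 741 and 843 CPM in Q140 x Msh3-/- mice, 575, 617 and 694 CPM in Q140 x Msh3+/- mice and 576, 618 and 641 CPM in Q140 mice. The Q140 crosses overlapped here too. The second step of Prkcb was 0.25 ± 0.0381 (adjusted p = 1.95e-05) and its first 0.02 (95% interval -0.06 to 0.09). Lrriq1 fell in the second step by 0.50 on the log2 scale (SE 0.112, adjusted p = 0.0046), with 2.57, 3.09 and 3.30 CPM in Q140 x Msh3-/- mice and 3.67, 4.07 and 4.98 CPM in Q140 x Msh3+/- mice, which did not overlap. Its first step was 0.16 (95% interval -0.06 to 0.39). Penk, Adcy5, Ddit4l, Gpx6, Sfmbt2 and Kazald1 were called in each step: Gpx6 rose by 1.08 in the second and 1.12 in the first, and Sfmbt2 had -1.07 in the second and -0.74 in the first. A further 16 of the 637 genes had an unadjusted p of 0.05 or more between Q140 x Msh3-/- and Q140 mice, so that no net change over both steps was shown for them. Cacna2d2, a calcium channel subunit gene on chromosome 9, was one. Its medians were 169 CPM in Q140 x Msh3-/- mice, 193 CPM in Q140 x Msh3+/- mice and 181 CPM in Q140 mice. Some of its levels by mouse are given below with those of Parp3.

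**Figure D2:**
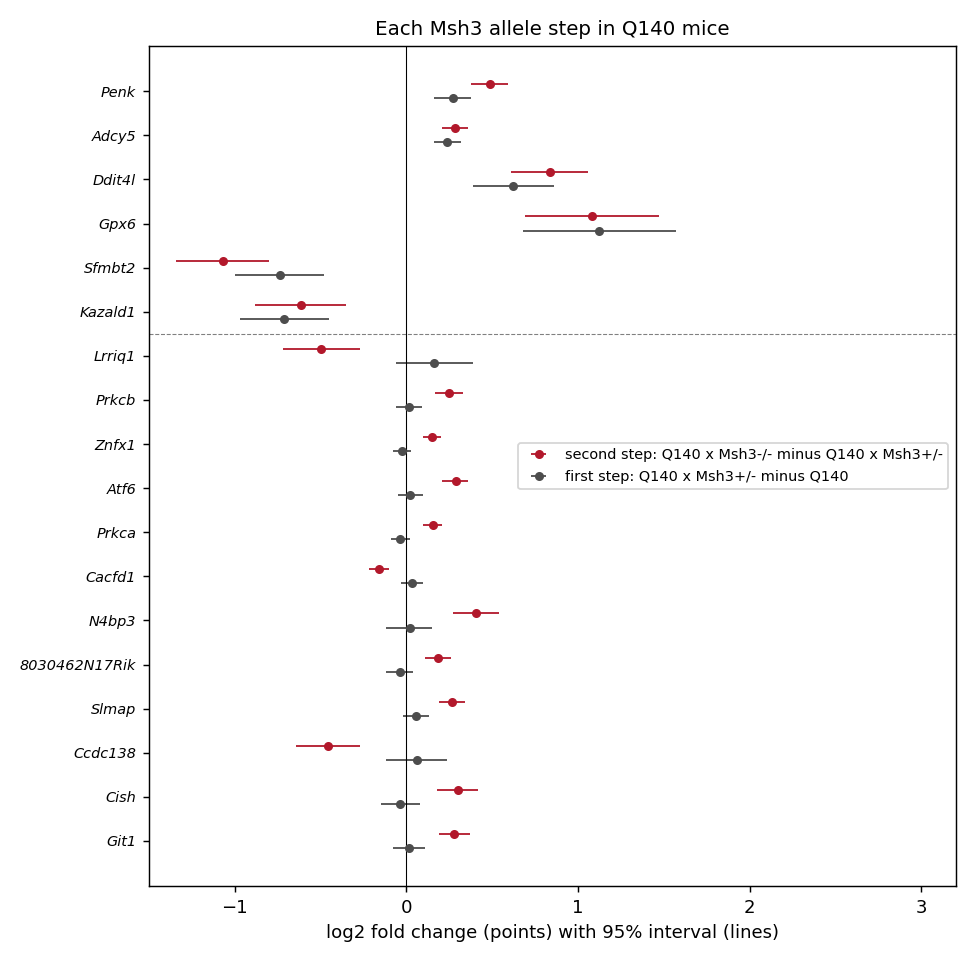
Log2 fold change (points) with its 95% interval (lines) of the second allele step (red, upper) and the first allele step (grey, lower) in Q140 mice for 18 genes. Above the dashed line are 6 genes chosen from the 85 called in each step with the same sign. Below it are 12 of the 144 genes that met the definition with an unadjusted difference of steps, those with the smallest such p. That definition asked for no sign of the first step, so the first-step intervals below the line cover 0 by selection.

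In mice that lack the Q140 allele, the same step (Msh3-/- minus Msh3+/-) called 3 genes (0.0152%; 1399 at an unadjusted p under 0.05), all on chromosome 13: Msh3, which rose by 0.73, and Cmya5 and Rasgrf2, which fell. Penk differed by -0.02 in that step, with 1504, 1626 and 1816 CPM in Msh3-/- mice and 1558, 1648 and 1822 CPM in Msh3+/- mice. The test of the step with Q140 against the step without Q140 called 256 genes (1.30%), 183 with a higher and 73 with a lower step under Q140. Their number was 135 without Q140 x Msh3-/- F3, 632 without Q140 x Msh3-/- M1 and 152 without the 4 libraries that stood apart. Those with the smallest p were Bcr, Prkcb, Rgs14 and Penk (adjusted p = 0.000141 each), then Znfx1, Chrna4 and Zbtb18 (adjusted p = 0.000346 each) and Onecut1 (adjusted p = 0.000627). Zbtb18, a transcriptional repressor, had 105, 129 and 137 CPM in Q140 x Msh3-/- mice and 91.6, 95.9 and 116 CPM in Q140 x Msh3+/- mice, which overlapped, and medians of 151 CPM in Msh3-/- and of 163 CPM in the Msh3+/- group. Its step was 0.33 with Q140 and -0.13 without.

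Most genes of the second step were genes that Q140 changes, moved the other way. In a separate fit of the Q140 and WT mice alone, which shares no mouse with this comparison, 6469 genes (32.8%) were changed by Q140. Of the 637 genes of the second step, 602 were among them, 601 with the opposite sign and 1, Cmya5, with the same sign. These 601 are 94.3% of the second-step calls and 9.29% of the Q140-changed genes; 439 were lowered by Q140 and higher after the second step, and 162 were raised by Q140 and lower after it. With library totals 778 of 931 calls were opposite, and with limma on FPKM 733 of 885. Of the 13245 genes that Q140 did not change, 0.264% were called in the second step. Of the 318 genes that Q140 changed by 2-fold or more, 57 (17.9%) were called with the opposite sign. Levels of Ddit4l stayed short of those in WT mice: its median was 18.8 CPM in Q140 x Msh3-/- mice, 10.6 CPM in Q140 x Msh3+/- mice, 6.85 CPM in Q140 mice and 37.03 CPM in WT mice.

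**Figure D3:**
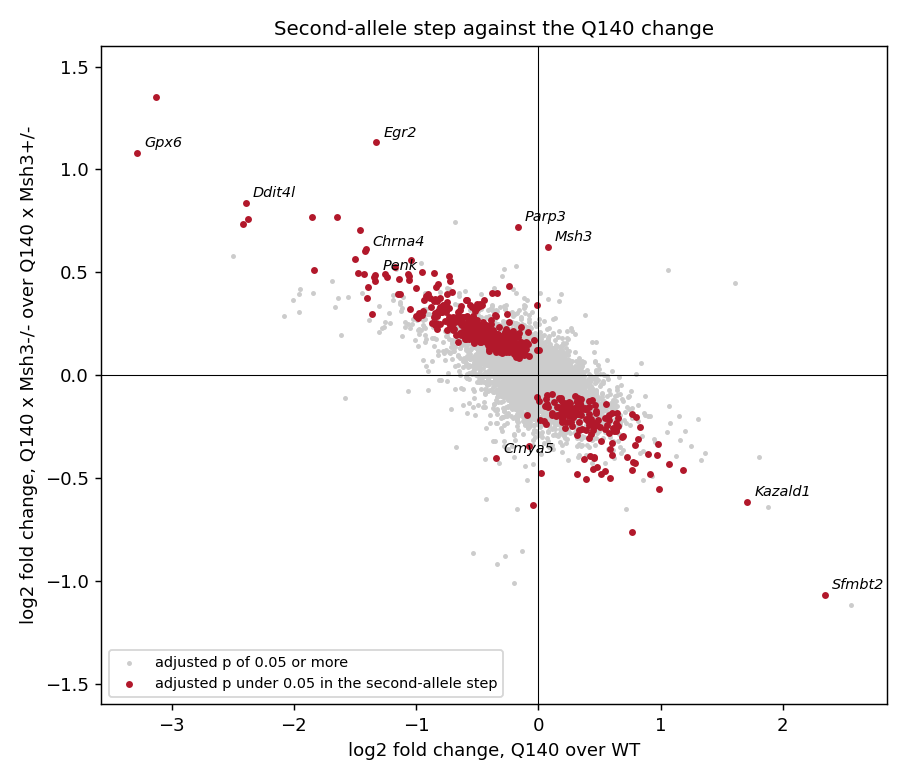
Log2 fold change of the second allele step (y axis) against that of Q140 over WT in the fit of those mice alone (x axis) for the 13904 genes whose log2 CPM averaged 1 or more; red points are called in the second step. Called genes lie in the upper left and lower right, apart from Cmya5 and genes near 0 on the x axis such as Msh3 and Parp3; 2 genes that were not called lie beyond the y range of 1.6.

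A score per mouse condensed this. It is the mean over 1212 genes of log2 CPM, centred on the 48 mice and signed by the Q140 change (adjusted p under 0.05 and at least 0.5 on the log2 scale in the Q140 and WT mice), so a higher score is more like Q140. It was -0.038, 0.039 and 0.138 at the lowest, median and highest in Q140 x Msh3-/- mice, against 0.126, 0.327 and 0.375 in Q140 x Msh3+/- mice. The ranges overlapped at the Q140 x Msh3+/- mouse F1, which is one of the libraries that stood apart. The means were 0.040 ± 0.074 in Q140 x Msh3-/- mice and 0.280 ± 0.096 in the Q140 x Msh3+/- group (SD over 8 mice a group), a difference of -0.240 (2-sided exact permutation over 12870 arrangements, p = 0.000466). Without Q140 the means were -0.276 ± 0.019 in Msh3-/- and -0.268 ± 0.037 in Msh3+/- mice (difference -0.008, exact permutation p = 0.584). The numbers 29, 30 and 39 in the mouse names occur in both Q140 crosses, and the labels do not say what they mark. Mice with the same number differed by -0.262 to -0.194 in score.

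**Figure D4:**
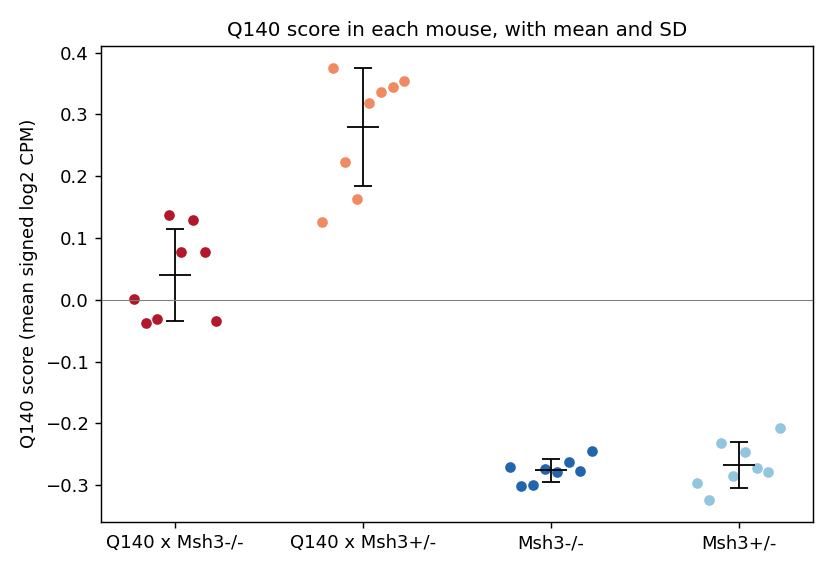
Q140 score (mean signed log2 CPM over 1212 genes) of each mouse (points) with mean and SD of 8 mice (black). The Q140 x Msh3-/- mice lie between -0.038 and 0.138, below all but 1 of the Q140 x Msh3+/- mice, and the groups without Q140 lie below both.

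Of the 59 other genes tested within 5 Mb of Msh3, 4 fell and none rose, and 2 fell without Q140 x Msh3-/- F3. Over all genes tested, 0.938% were lower and 2.29% higher. AW495222 had 0.783, 1.04 and 1.22 CPM in Q140 x Msh3-/- mice and 1.47, 2.02 and 2.26 CPM in Q140 x Msh3+/- mice, without overlap (-0.95 ± 0.142, adjusted p = 1.42e-05). Its step without Q140 was also downward, at -0.70 ± 0.15, and was not called (adjusted p = 0.108). For AW495222 the 2 steps, with and without Q140, were not shown to differ (adjusted p = 0.633). Cmya5, which encodes a muscle-associated scaffold protein, had 6.63, 8.39 and 9.41 CPM in Q140 x Msh3-/- mice and 8.99, 10.8 and 13.5 CPM in Q140 x Msh3+/- mice, which overlapped (-0.40 ± 0.0692, adjusted p = 0.000129). In the step without Q140 it fell by 0.64 on the log2 scale (adjusted p = 1.13e-08), with medians of 8.83 CPM in Msh3-/- and of 13.1 CPM in the Msh3+/- group. The steps with and without Q140 were not shown to differ (adjusted p = 0.232). Rasgrf2, a Ras guanine nucleotide exchange factor, differed by -0.41 ± 0.128 with Q140 (adjusted p = 0.0667) and fell by 0.74 without it (adjusted p = 0.0061). Fam169a and Atp6ap1l were the other 2, at -0.16 and -0.26, and each lost its call without some of the mice, Fam169a in 8 and Atp6ap1l in 5 of the 16 fits.

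Parp3 and Abhd14b, neighbours on chromosome 9, differed between mice of the same genotype, which was noticed after the values were seen. Parp3, a poly(ADP-ribose) polymerase, had 15.95, 13.5, 8.47 and 7.20 CPM in Q140 x Msh3-/- females F1 to F4 and 7.12, 9.76, 10.7 and 14.1 CPM in the males M1 to M4, against 5.18 to 9.08 CPM in Q140 x Msh3+/- mice. Abhd14b had 6.14, 6.01, 8.84 and 13.0 CPM in the same Q140 x Msh3-/- females and 19.5, 12.0, 12.6 and 7.72 CPM in the males, against 12.5 to 20.9 CPM in Q140 x Msh3+/- mice. The 3 Q140 x Msh3-/- mice highest in Parp3 (F1, F2 and M4) were the 3 lowest in Abhd14b, and the groups overlapped for both genes. Cacna2d2, also on chromosome 9, was lowest among Q140 x Msh3-/- mice in F2 (152 CPM) and M4 (155 CPM), and had 172 CPM in F1. Levels also ranged widely in other groups: Parp3 had 5.46 to 15.3 CPM in Q140 and 6.89 to 12.6 CPM in WT mice. Parp3 (0.72 ± 0.201, adjusted p = 0.0329) and Abhd14b (-0.63 ± 0.178, adjusted p = 0.0365) were called in the second step and not in the Q140 and WT mice, and they lost the call in 7 and 9 of the 16 fits without 1 mouse. Of 193 other genes tested within 5 Mb of Parp3, 12 were called (6.22%, against 3.23% of all genes tested). Among the 35 second-step genes not changed by Q140 were 5 of these. Abhd14b is itself among the 193, the 12 and the 5. The window was placed after the values of Parp3 and Abhd14b were seen, so these counts are a description. The part of this region in the other changes was not tested.

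**Figure D5:**
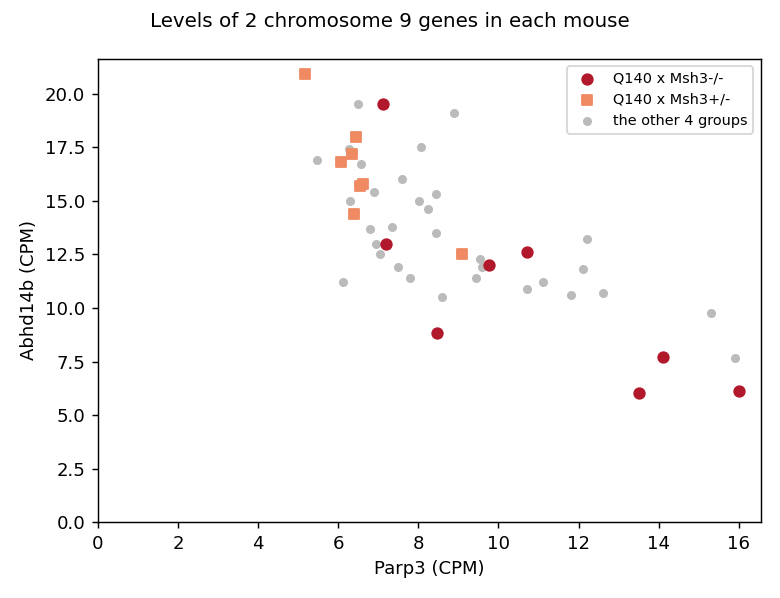
CPM of Abhd14b (y axis) against CPM of Parp3 (x axis) in each of 48 mice; circles are Q140 x Msh3-/-, squares Q140 x Msh3+/- and grey points the other 4 groups, and axes start at 0. The 3 Q140 x Msh3-/- mice with 13.5 to 15.95 CPM of Parp3 have 6.01 to 7.72 CPM of Abhd14b, while the Q140 x Msh3+/- mice all have 12.5 CPM of Abhd14b or more.

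The step was not shown to differ between the sexes. EdgeR called 0 genes in the male step minus the female step (0.0%), with 1447 at an unadjusted p under 0.05. In the females alone 135 genes were called in the second step and in the males alone 84, and 9 and 8 of the 30 identity genes rose. Their median differences were 0.210 in females and 0.199 in males.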

How the data were processed

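The authors deposited whole-number counts per gene for 48 libraries and a table of FPKM values. Per the submitters' processing notes the tools were STAR 2.7.5c, SAMtools 1.10 and HTSeq 0.12.3 with build GRCm38 (mm10); the sources used here name no annotation, strand setting or filter. Totals were 38916064 to 60899661 counts. In the table, 27 symbols turned into dates were restored from identifiers, and coordinates come from GENCODE M21.

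Genes passing edgeR's filterByExpr by genotype (minimum count 10) were tested: 19714, with 29081 filtered out. The main test was edgeR 4.0.16 in R 4.3.3 (TMM, robust quasi-likelihood F-test, 6 genotypes and sex, 48 libraries, 41 residual degrees of freedom), with Benjamini-Hochberg adjustment over all genes tested. It was tested on simulated data. DESeq2 1.42.0 on counts and limma 3.58.1 on log2(FPKM + 0.1) were alternatives, beside those under the processing heading. No pair of mice within either Q140 cross agreed within sampling noise, and the other groups were not checked for this.

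Named genes were Msh3, Htt and the 12 largest rises and falls whose log2 CPM averaged 1 or more. Up to 4 called genes per list and the smallest adjusted p of the other contrasts were named too. A selection is printed. Others were chosen after their values were seen, and some are marked so where they appear. Foxp1, Tac1, Pdyn, Grm3, Msh6, Slc17a7 and Cacna2d2 carry no such mark and were also named outside the rule, with their values known. Genes and lists were chosen with earlier results of these data known. Some genes, and 1 alternative fit that called fewer genes, are not reported here.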

Additional observations from a re-analysis of the deposited data

Results flagged for a closer look

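Of 178 groups of 8 values looked at, 10 held a mouse whose gap to the nearest other mouse passed Dixon's 95% critical value, and chance gives about 1 in 20. In Q140 x Msh3-/- mice, M1 stood apart on the first residual component at 22.54, and F3 had a high N4bp3 level of 12.05 CPM. In Q140 x Msh3+/- mice, F1 stood apart on that component at 24.15, with a high BC030499 level of 5.014 CPM and a low Egr3 level of 71.1 CPM. Also in Q140 x Msh3+/- mice, F4 was high for Mas1 (4.253 CPM) and Abhd11os (6.916 CPM), M2 was high for Parp3 (9.077 CPM), F2 was high for Pcdhb3 (10.47 CPM) and M4 was low for Chrm4 (49.75 CPM).

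The step with Q140 minus the step without Q140 passed the interaction test for 256 genes. On the log2 scale the difference of steps was 0.27 for Bcr, 0.36 for Prkcb, 0.59 for Rgs14, 0.50 for Penk, 0.22 for Znfx1, 0.74 for Chrna4, 0.46 for Zbtb18 and -4.93 for Onecut1.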

How the results depend on the processing

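At an adjusted p under 0.01, the second step called 290 genes, of which 286 were opposite to Q140; 77 genes had an unadjusted difference of steps and 72 passed the interaction. With females alone these 4 counts were 135, 122, 40 and 1, and with males alone 84, 83, 37 and 3. The unadjusted difference of steps gave 236 genes with library totals and 232 with limma on log2(FPKM + 0.1); the interaction called 447 genes with DESeq2 and 152 without the libraries that stood apart. Leaving out each of the 16 mice in turn gave 386 to 892 second-step genes, 369 to 777 opposite to Q140, 76 to 224 with an unadjusted difference of steps and 135 to 632 in the interaction. The score differed by -0.262 to -0.227 in these fits. Of 87 named genes called in the second step, 68 kept the call in all 16. With library totals 931 genes were called, 436 of them shared with TMM, and 27.1% of the 931 were higher.

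The difference of steps called 1 gene, and the full definition found 0 genes, under each alternative reported here that fitted both steps, which the fit of the 16 mice alone does not. Mice with the same replicate label (F1 to M4) in both groups did not deviate together in all pairs (correlations -0.181 to 0.252), so these labels were not taken as pairs; with a replicate block 634 genes were called, 593 of them shared. The second step called 571 genes with the mitochondrial share as a term, 534 with no sex term, 509 with the 16 mice alone, 503 with plate row and column as terms and 501 with no filter on low counts. Onecut1, with 24 counts in all in the Q140 x Msh3-/- libraries, has its fold change limited by depth.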
